A study of Mus musculus with 12 samples.

Results

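CTCF and the genes of the cohesin machinery were followed through an inflammatory response in mouse bone marrow-derived dendritic cells (BMDC). The 10 genes were taken by symbol, namely Ctcf, Rad21, Smc1a, Smc3, Stag1, Stag2, Nipbl, Wapl, Pds5a and Pds5b, and all 10 were found among the 55335 genes listed. RNA-seq was available for 12 libraries in 4 groups of 3. WT was untreated, WTL was stimulated with lipopolysaccharide (LPS, a component of the bacterial outer membrane) at 100 ng/ml for 3 h, WT+JSH23 was given JSH-23 at 100 µM for 3 h, and WTL+JSH23 was given JSH-23 before LPS. JSH-23 is a small molecule that keeps the NF-κB subunit RelA out of the nucleus.

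All 4 groups came from the bone marrow of C57BL/6 mice that carried CreER, a tamoxifen-inducible recombinase, with an intact Ctcf gene, and were cultured in GM-CSF for 6 days. By the methods of the study CreER was expressed from the Rosa26 locus, the mice were 8 to 12 weeks old and of both sexes, and CD11c+ cells were taken with magnetic beads. The methods call the 3 libraries of a condition biological replicates, and p values measure the spread between them. The labels do not say whether these cultures received tamoxifen, whether a solvent control for JSH-23 was given to the other groups, or whether replicates came from separate mice. Replicates of WT and WTL carried the numbers 4 to 6, and those of both JSH-23 groups the numbers 1 to 3.

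CTCF is a zinc finger protein that binds DNA at an oriented motif and stops the movement of cohesin along chromatin. Cohesin is a ring of SMC1A, SMC3 and the kleisin RAD21, bound by either STAG1 or STAG2, and it extrudes loops of chromatin until it is halted or released. NIPBL drives loading and extrusion, WAPL opens the ring, and PDS5A and PDS5B bind the ring and take part both in release by WAPL and in its protection. In dendritic cells and macrophages, loops held by CTCF and cohesin bring inducible genes and their enhancers into contact.

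Total expected counts ran from 24664724 to 34837847 per library, and 14357 genes passed the count filter, the 10 members among them. Every member had between 418 and 4873 counts in every library, so none was limited by low counts. The dendritic cell markers Itgax (CD11c), H2-Ab1, Cd74, Flt3, Zbtb46, Ccr7, Csf2ra, Csf2rb, Cd86 and Irf4 were all measured, and their summed level lay between 18500 and 21300 TPM (transcripts scaled to one common total). Most of that sum was Cd74 and H2-Ab1, at 14100 and 3590 TPM in WT, while Flt3 was at 2.94 TPM. Markers of T cells summed to at most 3.39 TPM, of B cells to at most 0.38 TPM, of mast cells to at most 0.64 TPM, of NK cells to at most 0.34 TPM and of erythroid cells to at most 0.33 TPM, with all 3 erythroid markers at 0 in WT and WTL. The 8 neutrophil markers summed to between 155 and 206 TPM, nearly all of it S100a8 and S100a9, with Ly6g, Elane and Retnlg below the filter. The 6 macrophage markers summed to between 1060 and 1190 TPM without LPS and between 1610 and 1750 TPM with it, and Cd14 alone went from 299 TPM in WT to 1250 TPM in WTL. WTL+JSH23 replicate 3 stood apart from the other 2 libraries of its group, with chi-square values per gene of 8.18 and 9.11 against 3.00 between those 2.

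The level of each member was first compared per length, in TPM, with no test. Pds5a had the highest level in untreated cells at 53.2 ± 0.968 TPM (SD, n = 3), followed by Stag2 at 45.5 ± 2.96, Wapl at 40.8 ± 1.56, Rad21 at 40.2 ± 0.676 and Ctcf at 36.1 ± 2.15 TPM. Smc1a had 24.5 ± 1.63, Nipbl 23.9 ± 0.679, Stag1 17.5 ± 0.923, Smc3 13.7 ± 0.268 and Pds5b 8.88 ± 0.537 TPM. The libraries of Wapl and Rad21 overlapped, as did those of Smc1a and Nipbl, while all other neighbours in this order were separated. Pds5a stood above 82.3% of the genes tested in WT, and Pds5b above 46.5%.

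Within the ring, the 3 core subunits therefore differed in transcript level, with Rad21 above Smc1a and Smc1a above Smc3 in every WT library. After LPS, Rad21 had the highest mean of the 10 at 48.2 ± 1.39 TPM, although its libraries overlapped with those of Pds5a at 47.0 ± 2.67 TPM. Pds5b and Smc3 remained the lowest 2 in all 4 groups.

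**Figure D1:**
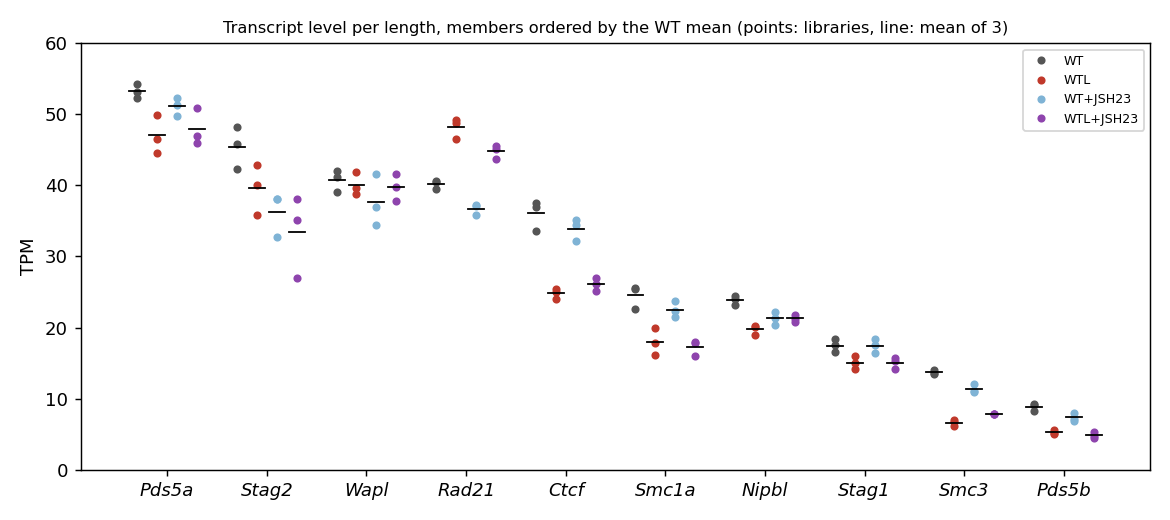
Level of each member in TPM (vertical axis) in the 12 libraries, coloured by group, with members ordered by their WT mean and a line at the mean of 3 libraries. Rad21 moved from 40.2 TPM in WT to 48.2 TPM in WTL, whereas Smc3 went from 13.7 to 6.61 TPM.

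To examine how LPS changed these transcripts, WTL was compared with WT in CPM, which are counts relative to a library size scaled with TMM factors (trimmed mean of M values). Rad21 and Wapl rose, Smc3 and Pds5b fell, and the other members moved by at most 0.16 on the log2 scale in either direction. In all, 4 members were called higher (Rad21, Stag2, Wapl and Pds5a) and 3 lower (Ctcf, Smc3 and Pds5b) at an adjusted p under 0.05, and none moved by more than 2-fold. The response to LPS was broad, with 31.0% of all genes tested called higher and 34.7% called lower, so that the counts of members did not stand out from the background. The median absolute log2 change was 0.161 over the members and 0.387 over all genes tested. In these bulk samples, fewer cells of a type and less RNA per cell cannot be told apart.

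Rad21, which encodes the kleisin that closes the ring (chromosome 15, 51962240 to 51991747 in GRCm38, minus strand), rose most. Its normalised level was 92.5, 91.2 and 92.3 CPM in the 3 WT libraries and 142, 137 and 138 CPM in the 3 WTL libraries. No WTL library came near a WT library. The fold change was 1.51 (log2 0.60, SE 0.0365, adjusted p = 5.27e-12), above 86.0% of the genes tested.

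Smc3, which encodes one of the paired ATPase arms of the ring (chromosome 19, 53600398 to 53645833, plus strand), fell by nearly the same factor. It was at 33.3, 36.5 and 34.2 CPM in WT and at 22.1, 24.0 and 22.3 CPM in WTL, with no overlap. The log2 change was -0.60 (SE 0.055, adjusted p = 3.92e-09), which leaves 0.659 of the WT level. Its partner arm Smc1a (chromosome X, 152016428 to 152062694) lay between 53.8 and 55.8 CPM in WT and between 51.6 and 55.7 CPM in WTL, and was not called with TMM (log2 -0.04, adjusted p = 0.53).

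Of the release factors, Wapl (chromosome 14, 34673928 to 34747983) was at 112, 117 and 111 CPM in WT and at 150, 143 and 136 CPM in WTL. All 3 stimulated libraries lay above the untreated ones, with a fold change of 1.27 (log2 0.34, SE 0.041, adjusted p = 2.75e-07). Pds5b (chromosome 5, 150673739 to 150810690) was at 34.3, 32.9 and 29.8 CPM in WT and at 21.5, 24.0 and 20.4 CPM in WTL. It fell in all 3 WTL libraries to 0.681 of the WT mean (log2 -0.55, SE 0.0672, adjusted p = 2.86e-07). Its paralog Pds5a, on the same chromosome at 65605721 to 65698273, went the other way, from between 110.8 and 112 CPM to between 120.0 and 131 CPM (log2 0.16, SE 0.0397, adjusted p = 0.00131).

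Ctcf itself (chromosome 8, 105636568 to 105682922, plus strand) was at 64.0, 61.1 and 64.2 CPM in WT and at 56.7, 57.7 and 56.1 CPM in WTL. The libraries did not overlap, and the fall was small at 0.902 of the WT level (log2 -0.15, SE 0.044, adjusted p = 0.00537). Ctcf overlaps Agrp on the other strand, but Agrp had at most 5 counts in any library. In 10 libraries the count of Ctcf was fractional, because some of its reads were shared with other genes.

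Among the subunits that hold the ring on chromatin, Stag2 (chromosome X, 42149317 to 42277185) was at 132, 139 and 130 CPM in WT and 158, 148 and 143 CPM in WTL (log2 0.16, SE 0.0587, adjusted p = 0.0207). That call was lost without WT replicate 4 (adjusted p = 0.0599), WT replicate 6 (0.0765) or WTL replicate 4 (0.114). Stag1 (chromosome 9, 100597798 to 100959375) and the loader gene Nipbl (chromosome 15, 8290617 to 8444463) were not called, at log2 0.09 (adjusted p = 0.0954) and 0.05 (adjusted p = 0.233).

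**Figure D2:**
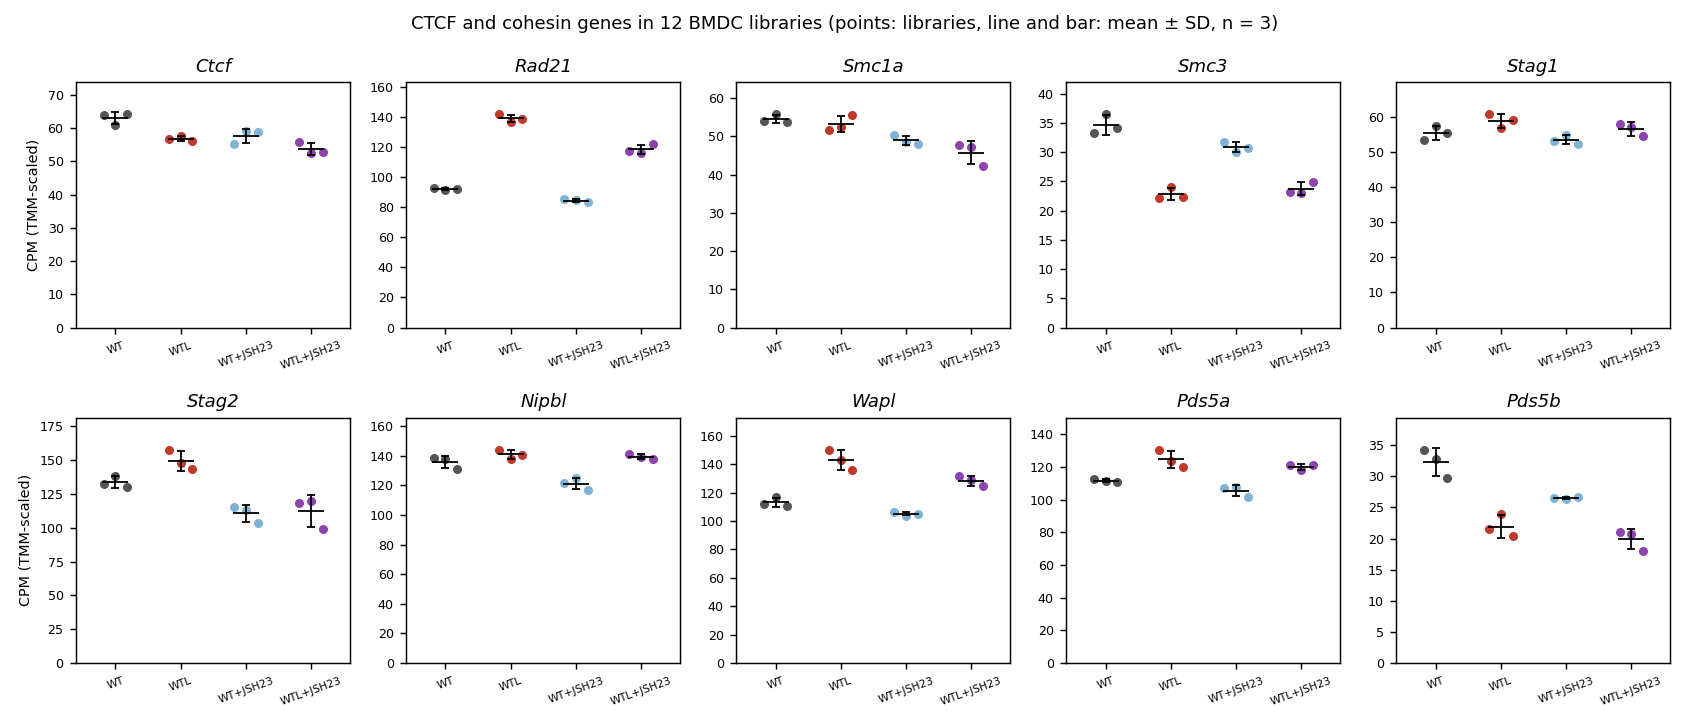
TMM-scaled CPM (vertical axis, from 0) of the 10 members in every library, with the mean and SD of each group of 3. The WTL points of Rad21 (137 to 142 CPM) and Wapl (136 to 150 CPM) lay above the WT points, and those of Smc3 (22.1 to 24.0 CPM) and Pds5b (20.4 to 24.0 CPM) lay below them.

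The size of these changes depended on how the libraries were scaled, since the TMM factors were 0.859 to 0.880 in WTL and 1.08 to 1.09 in WT. The median log2 change of all genes tested was -0.05 with TMM, -0.01 with the size factors of DESeq2 (RLE), -0.13 with upper quartile factors, -0.38 with plain library totals and -0.26 on log2(TPM + 1). Rad21 was higher and Ctcf, Smc3 and Pds5b were lower under all of these. With plain totals and on the TPM scale, Stag1, Stag2, Nipbl and Pds5a turned to lower values, between -0.17 and -0.28, and Wapl stood at 0.01 and -0.02. Smc1a was called lower with upper quartile factors (-0.12, adjusted p = 0.0465), plain totals (-0.37, adjusted p = 1.98e-06) and, by limma, on log2(TPM + 1) (-0.43, adjusted p = 0.000834). Stag1 was called higher with RLE (0.12, adjusted p = 0.0232) and by DESeq2 (0.12, adjusted p = 0.0437). Ctcf was at -0.48 with plain totals and -0.52 on log2(TPM + 1), or from 36.1 to 24.8 TPM. Relative to the median of all genes, Rad21 stood at 0.64, Wapl at 0.39, Ctcf at -0.10, Pds5b at -0.51 and Smc3 at -0.55 under each of the 4 edgeR scalings. On log2(TPM + 1) the same values were 0.51, 0.24, -0.26, -0.40 and -0.69. The 4 edgeR scalings shift all genes by nearly the same amount, so their match after removal of the median was fixed in advance.

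**Figure D3:**
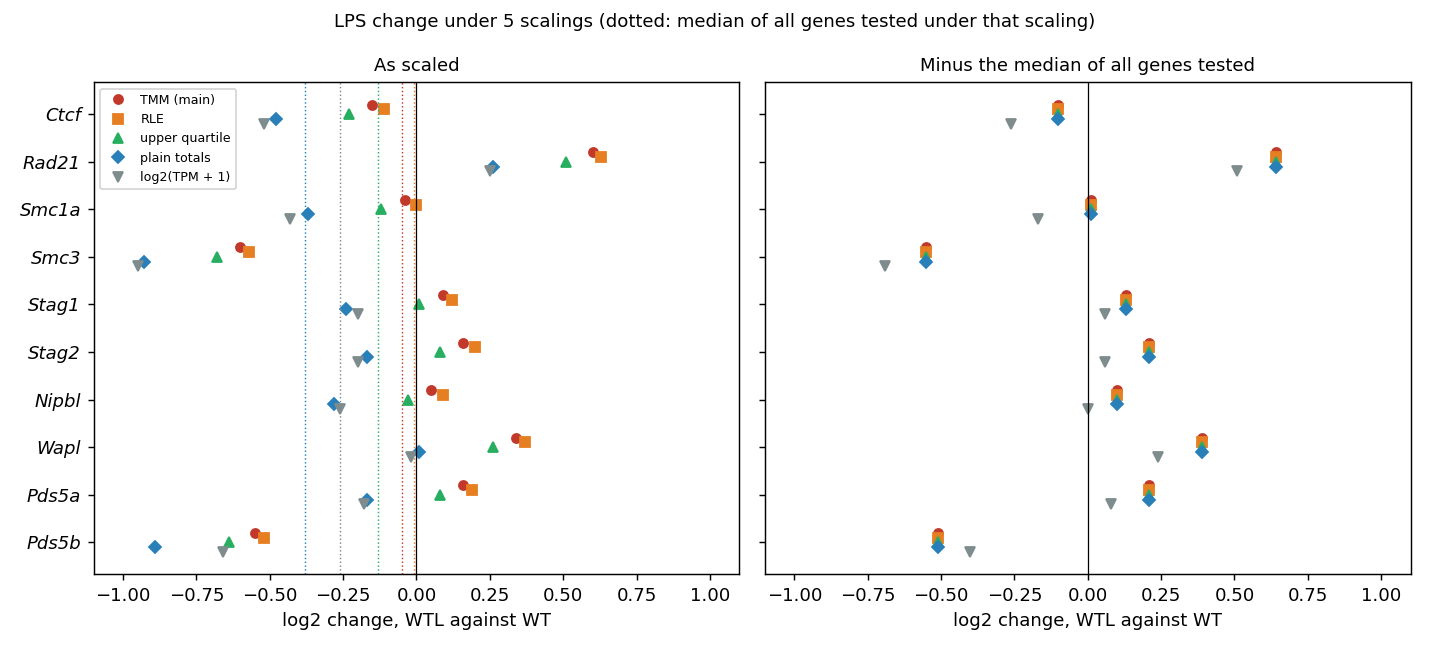
Log2 change of each member in WTL against WT (horizontal axis) under 5 scalings, as scaled on the left and minus the median of all genes tested on the right. Dotted lines mark that median, which went from -0.01 with RLE to -0.38 with plain totals. After it was taken off, the 4 edgeR scalings coincided by construction, with Rad21 at 0.64 and Smc3 at -0.55.

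Ratios between members within a library do not depend on that scaling, and they were described without a test. Rad21 over Smc3, a pair chosen after the values of both had been seen, was 2.94 ± 0.0307 in WT and 7.31 ± 0.571 in WTL, with 2.91 to 2.97 and 6.97 to 7.97 as the ranges over 3 libraries. Smc1a over Smc3 was 1.79 ± 0.122 and 2.72 ± 0.268, Pds5a over Pds5b was 6.01 ± 0.277 and 9.01 ± 0.873, and neither pair of ranges overlapped. Ctcf over Rad21 went from 0.896 ± 0.0387 to 0.516 ± 0.0218, and Nipbl over Wapl from 0.587 ± 0.00599 to 0.493 ± 0.0242, again with no overlap. Stag2 over Stag1 was 2.60 ± 0.131 in WT and 2.63 ± 0.224 in WTL, and these ranges overlapped.

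Part of a TPM ratio comes from the length that was assigned to a gene in each library. Smc3 was given lengths between 4210 and 4595 bases in WT and between 4423 and 4851 bases in WTL, which overlapped. Those of Pds5b did not overlap, with 6047 to 6248 bases in WT and 5564 to 5683 bases in WTL. With the counts divided by one fixed length per gene, Rad21 over Smc3 was 3.09 ± 0.167 in WT and 7.08 ± 0.422 in WTL, and Pds5a over Pds5b 5.81 ± 0.383 and 9.58 ± 0.831. Nipbl, with a single annotated transcript, had the same length of 9423 bases in all libraries.

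**Figure D4:**
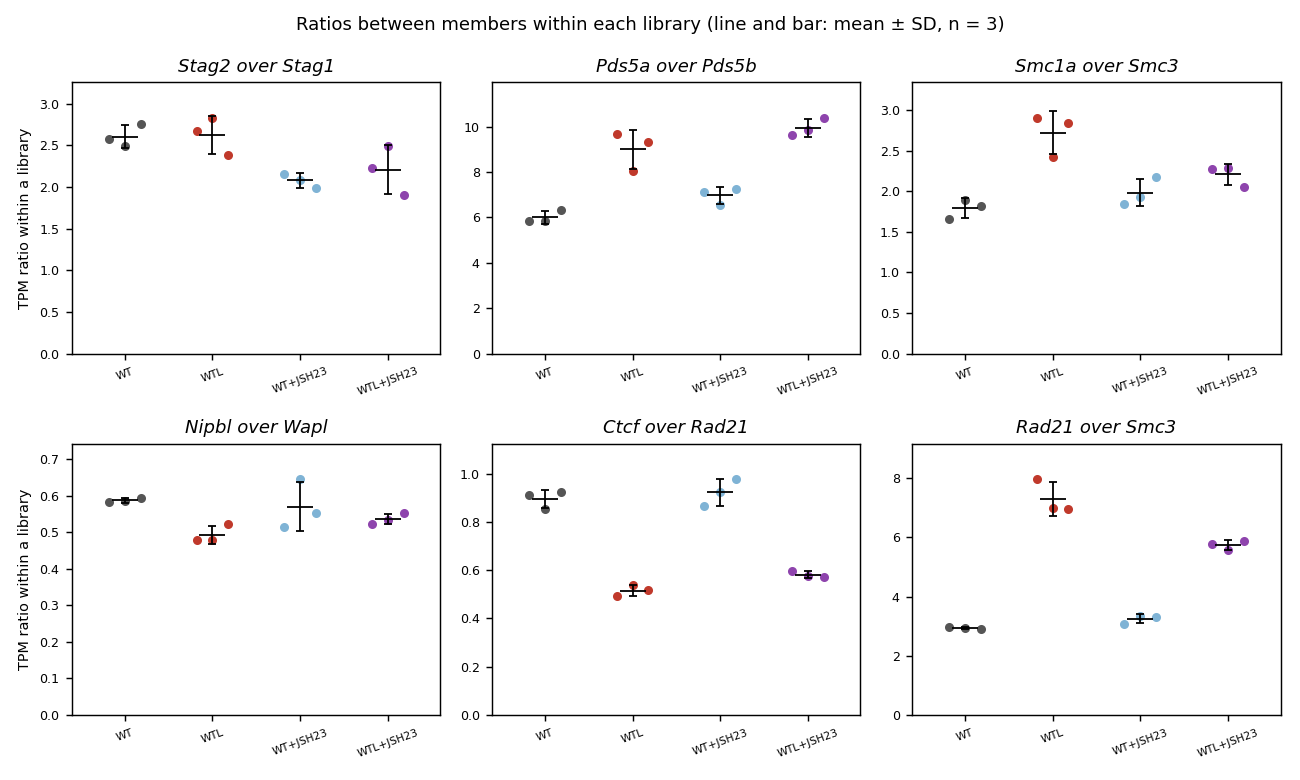
Ratio of the TPM of 2 members within each library (vertical axis, from 0), with the mean and SD of each group of 3. Rad21 over Smc3 lay between 2.91 and 3.36 in the 6 libraries without LPS and between 5.56 and 7.97 in the 6 libraries with LPS, and Stag2 over Stag1 lay lower in WT+JSH23 (1.99 to 2.16) than in WT (2.49 to 2.75).

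Because Smc3 and Pds5b fell together and were each the most similar member to the other over the 4 groups (root mean square difference of centred log2 CPM 0.0808), the bases before their start sites are shown. The sequences are from RefSeq on GRCm38.p6, written 5′ to 3′ on the strand of the gene, and end at the base before the RefSeq start for Smc3 (chr19:53600146-53600395) and before the first GENCODE exon for Pds5b (chr5:150673577-150673738). Capitals mark matches on either strand to the motifs named after them.

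Smc3: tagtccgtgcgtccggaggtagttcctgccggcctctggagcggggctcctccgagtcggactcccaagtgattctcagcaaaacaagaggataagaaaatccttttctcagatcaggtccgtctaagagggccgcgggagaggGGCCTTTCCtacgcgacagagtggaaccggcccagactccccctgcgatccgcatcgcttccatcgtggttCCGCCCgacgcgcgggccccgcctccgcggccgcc

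Pds5b: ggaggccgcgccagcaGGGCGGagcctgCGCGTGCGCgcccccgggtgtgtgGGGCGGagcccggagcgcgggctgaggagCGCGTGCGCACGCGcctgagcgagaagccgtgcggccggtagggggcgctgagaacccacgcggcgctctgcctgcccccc

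The 250 bases before the start were searched in 7 members, and Nipbl, Rad21 and Stag2 were not among the entries used. The windows of Smc1a and Wapl overlapped GENCODE exons of Ribc1 and 5830448L01Rik, and those of Pds5a and Pds5b overlapped exons of the gene itself. The window of Stag1 (chr9:100643198-100643447) lay within the GENCODE span of that gene. Matches were counted over the full window, in members and background alike. A κB-type match (GGNNTTTCC) was present in 1 of the 7, Smc3, where it read GGCCTTTCC at positions -106 to -98 from the start. The same letters were present in 5.36% of the 10216 promoters of genes tested. An NRF1-type match (GCGCANGCG) was present in 3 of the 7 (Pds5b, Stag1 and Wapl), against 11.3% of promoters, and Pds5b held 3 matches, 2 of them overlapping. The SP/KLF letters GGGCGG were present in all 7, against 58.1%. The E2F-type letters TTTNNCGC were found in Pds5a and Stag1 (background 7.18%) and the YY1-type ATGGCGG in Stag1 (3.75%), where it overlapped a GGGCGG match. None of the 7 held the ETS-type CCGGAAG (14.1%) or the CTCF-type core CNAGGNGGC (10.6%). These are matches of letters and not measured binding.

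LPS was next compared under JSH-23, an inhibitor of the nuclear entry of RelA. The location of RelA was not measured in these libraries. The same 4 members that had moved most without the inhibitor also moved with it. Rad21, Wapl, Pds5a and Nipbl were called higher and Smc3 and Pds5b lower, 4 and 2 members, against 27.4% of all genes called higher and 27.1% called lower. Rad21 was at 85.4, 84.5 and 83.1 CPM in WT+JSH23 and at 117, 116 and 122 CPM in WTL+JSH23. This is a fold change of 1.40 (log2 0.49, SE 0.037, adjusted p = 2.88e-10), with no overlap between the libraries.

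Smc3 was at 31.8, 30.1 and 30.7 CPM in WT+JSH23 and at 23.2, 23.0 and 25.0 CPM in WTL+JSH23. It fell to 0.768 of the level without LPS (log2 -0.38, SE 0.0558, adjusted p = 5.84e-06). Pds5b lay at 26.6, 26.3 and 26.7 CPM and at 20.98, 20.7 and 18.1 CPM (log2 -0.41, SE 0.07, adjusted p = 4.31e-05). Wapl went from between 103.8 and 106 CPM to between 125 and 132 CPM (log2 0.29, SE 0.0414, adjusted p = 4.57e-06). For Wapl that call was lost with plain totals (0.05, adjusted p = 0.277) and by limma on log2(TPM + 1) (0.08, adjusted p = 0.369). In Smc3, Pds5b and Wapl the libraries with and without LPS were separated. How many of all genes tested separate in this way was not counted, here or for LPS without JSH-23. Since 54.5% of all genes were called in this comparison, separation does not set these members apart.

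Nipbl, the loader, was called higher by LPS under JSH-23 (log2 0.20, SE 0.0385, adjusted p = 0.000136), from 121, 125 and 117 CPM to 141, 139 and 138 CPM. With plain totals its value turned to -0.04. Pds5a rose by 0.19 on the log2 scale (SE 0.04, adjusted p = 0.000456) and was at -0.05 with plain totals. Ctcf was at 55.3, 59.1 and 58.8 CPM in WT+JSH23 and at 56.0, 52.5 and 52.9 CPM in WTL+JSH23, and these overlapped. Its change of -0.10 was not called (SE 0.0447, adjusted p = 0.0635), although it passed without WT+JSH23 replicate 1 (adjusted p = 0.0313) or WTL+JSH23 replicate 1 (0.0414). Ctcf was called lower with upper quartile factors (-0.18, adjusted p = 0.0017), plain totals (-0.34, adjusted p = 1.99e-06) and, by limma, on log2(TPM + 1) (-0.36, adjusted p = 0.000351). Smc1a (-0.10), Stag1 (0.08) and Stag2 (0.02) were not called with TMM. Under plain totals all 3 were called lower, at -0.34, -0.16 and -0.22.

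The difference between the LPS changes with and without JSH-23 was tested as an interaction. With TMM none of the 10 members passed in edgeR, nor did any in DESeq2. Over all genes tested, 9.54% passed with a higher and 8.44% with a lower LPS change under JSH-23. A count of 0 among 10 members does not stand out from these shares. At an unadjusted p under 0.05, 2 members passed with edgeR, Smc3 (0.22, SE 0.0785, adjusted p = 0.0576) and Nipbl (0.15, SE 0.0542, adjusted p = 0.0604). The share of all genes that passed at an unadjusted p under 0.05 was not counted. It cannot be smaller than the shares above, so 2 of 10 members does not stand out either. Smc3 and Nipbl were near the adjusted threshold, and other settings called them. The adjusted p of Smc3 and Nipbl was 0.0058 and 0.00356 with plain totals, 0.0413 and 0.039 with a filter at a mean of 1 CPM, and 0.00646 and 0.0346 with limma on log2(TPM + 1). In the same order, these settings called 2499, 1508 and 1356 of all genes with a higher LPS change under JSH-23. Smc3 also passed without WTL replicate 5 (0.0458), and Nipbl without WT replicate 6 (0.048), WT+JSH23 replicate 2 (0.0408) or WTL+JSH23 replicate 3 (0.0446). For Rad21 the interaction was -0.11 (95% interval -0.23 to 0.01, adjusted p = 0.174), with plain totals at -0.01 and log2(TPM + 1) at 0.03. For Ctcf it was 0.05 (95% interval -0.10 to 0.19, adjusted p = 0.658). A p that misses the threshold does not show that the LPS changes were equal.

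**Figure D5:**
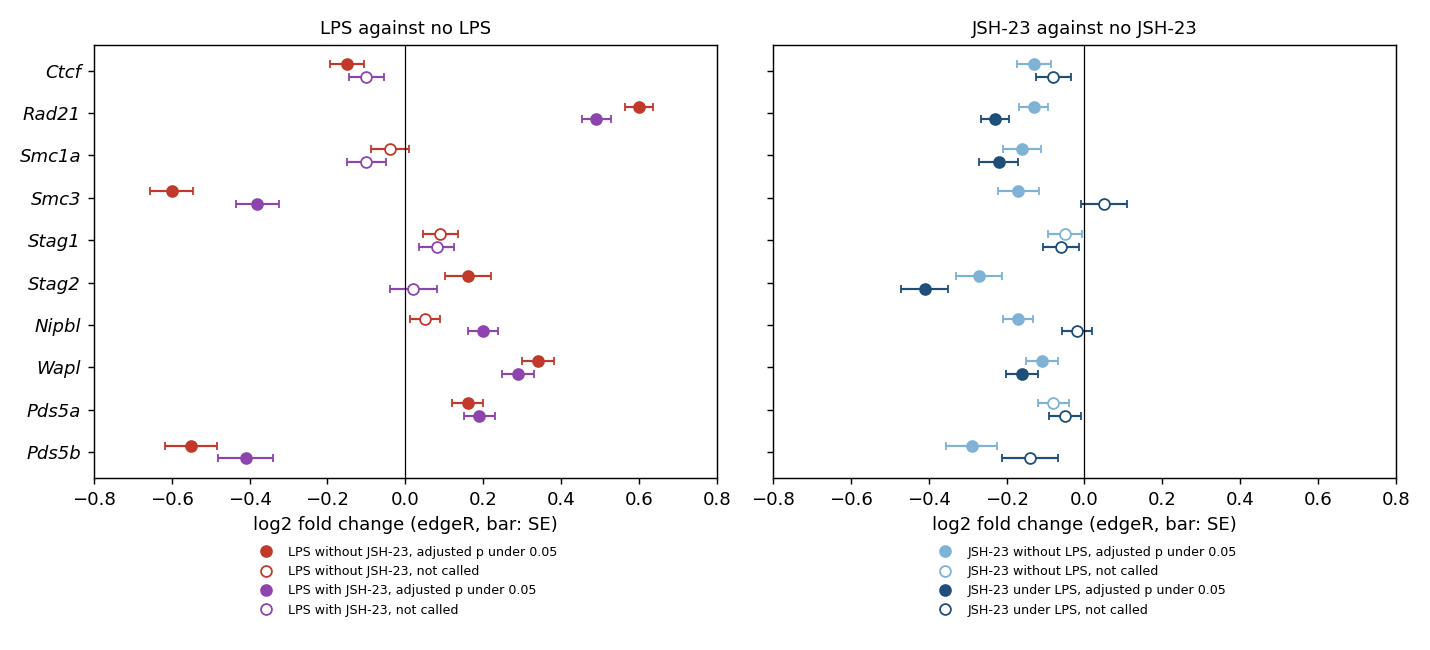
Log2 fold change of the 10 members (horizontal axis, bars are SE) for LPS on the left and JSH-23 on the right, with filled points at an adjusted p under 0.05. Rad21 stood at 0.60 without and 0.49 with JSH-23, and Smc3 at -0.60 and -0.38. On the right all 10 members lay below 0 without LPS.

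To examine JSH-23 by itself, WT+JSH23 was compared with WT. All 10 members had negative values and 8 were called lower, with Stag1 (log2 -0.05, adjusted p = 0.396) and Pds5a (-0.08, adjusted p = 0.109) as the exceptions. No member was called higher, also at an unadjusted p under 0.05 and by DESeq2, against 18.8% of all genes called higher and 22.1% called lower. Each change was small, with a median of -0.14 over the members and -0.01 over all genes tested.

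Pds5b fell by 0.29 on the log2 scale (SE 0.0646, adjusted p = 0.00103), with all 3 WT+JSH23 libraries between 26.3 and 26.7 CPM and all WT libraries at 29.8 CPM or more. Stag2 fell by 0.27 (SE 0.0591, adjusted p = 0.000735), from between 130 and 139 CPM to 115, 113 and 104 CPM. Nipbl fell by 0.17 (SE 0.0382, adjusted p = 0.00136), Rad21 by 0.13 (SE 0.037, adjusted p = 0.00926), Ctcf by 0.13 (SE 0.0435, adjusted p = 0.0224), Smc1a by 0.16 (adjusted p = 0.0128), Smc3 by 0.17 (adjusted p = 0.014) and Wapl by 0.11 (adjusted p = 0.0412).

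The calls of Ctcf, Smc1a, Smc3 and Wapl each rested on single libraries. Ctcf was not called without WT replicate 4 (adjusted p = 0.0792), WT replicate 6 (0.0796) or WT+JSH23 replicate 1 (0.131), Smc1a without WT replicate 5 (0.0538) or WT+JSH23 replicate 3 (0.0528), and Smc3 without WT replicate 5 (0.0916) or WT+JSH23 replicate 2 (0.056). Wapl lost its call without any of WT replicates 4 (0.0709) and 5 (0.161), WT+JSH23 replicates 1 (0.0697), 2 (0.105) and 3 (0.0913), WTL replicate 5 (0.053) and WTL+JSH23 replicate 1 (0.0505). With plain totals 4 members were called lower in place of 8, and Stag2, Nipbl, Pds5b and Smc3 were those 4. Over all genes 2690 were called lower with plain totals and 3180 with TMM. The calls of Ctcf and Wapl were also lost with upper quartile factors and with no count filter. Limma on log2(TPM + 1) called 4 members lower in place of 8, beside 2416 genes, and Stag2 (-0.32) was not among the 4. With the compared groups only, 7 members were called lower, beside 3064 genes.

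In stimulated cells, WTL+JSH23 was compared with WTL, the libraries that also served in the LPS comparison. Rad21, Smc1a, Stag2 and Wapl were called lower and no member higher, against 24.2% and 24.5% of all genes. The count of 0 higher members also held at an unadjusted p under 0.05 and with DESeq2, but plain totals called Smc3 (0.18, adjusted p = 0.0105) and Nipbl (0.11, adjusted p = 0.0199) higher and limma on log2(TPM + 1) called Smc3 higher (0.21, adjusted p = 0.00996). Stag2 had the largest change, from 158, 148 and 143 CPM in WTL to 119, 120 and 98.7 CPM in WTL+JSH23, or 0.752 of the WTL level (log2 -0.41, SE 0.0598, adjusted p = 6.34e-06). Replicate 3 was the lowest of these 6 libraries, and without it the log2 change was -0.33 and still called.

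Rad21 fell by 0.23 under JSH-23 in stimulated cells (SE 0.0364, adjusted p = 1.75e-05), from between 137 and 142 CPM to between 116 and 122 CPM, which is still above every library without LPS. Smc1a fell by 0.22 (SE 0.0505, adjusted p = 0.00111), from 51.6, 52.6 and 55.7 CPM to 47.7, 47.2 and 42.2 CPM. Wapl fell by 0.16 (SE 0.0411, adjusted p = 0.00302). The median of all genes tested was 0.02 with TMM, 0.15 with plain totals and 0.10 on log2(TPM + 1). Stag2 and Rad21 were lower under all 3, at -0.28 and -0.10 with plain totals and at -0.25 and -0.10 on log2(TPM + 1), but the limma fit called neither (adjusted p = 0.119 and 0.0811). The calls of Smc1a and Wapl were lost with plain totals (-0.09, adjusted p = 0.167, and -0.03, adjusted p = 0.56) and by limma (-0.05, adjusted p = 0.657, and -0.01, adjusted p = 0.908).

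Ctcf did not pass in this comparison (log2 -0.08, SE 0.0453, adjusted p = 0.159), and its value turned to 0.05 with plain totals and 0.07 on log2(TPM + 1). Its level over the 4 groups was 63.1 ± 1.74 CPM in WT, 56.8 ± 0.78 in WTL, 57.7 ± 2.15 in WT+JSH23 and 53.8 ± 1.89 in WTL+JSH23. The 3 genes with the most similar course over the 4 groups, of 7698 protein-coding genes with a mean of at least 10 CPM, were Apeh, Lman2 and Gtf3c2, with root mean square differences in centred log2 CPM of 0.00531, 0.00565 and 0.00886. Among the members, Smc1a was nearest to Ctcf at 0.0592.

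The ratios were also taken in the libraries with JSH-23. Stag2 over Stag1 was 2.08 ± 0.0839 in WT+JSH23 and 2.21 ± 0.294 in WTL+JSH23, against 2.60 ± 0.131 in WT. Pds5a over Pds5b was 6.98 ± 0.381 in WT+JSH23 and 9.97 ± 0.426 in WTL+JSH23, where all 3 libraries were at 9.62 or more. Rad21 over Smc3 was 3.24 ± 0.152 and 5.74 ± 0.158 in the same groups, so that the WTL+JSH23 libraries lay between those without LPS and those of WTL.

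Around these 10 genes, 38 other genes of chromosome architecture were listed, of which 34 passed the count filter. LPS without JSH-23 left 8 of the 34 higher and 19 lower, and LPS with JSH-23 left 6 higher and 14 lower. Over all genes tested 31.0% were higher and 34.7% lower without JSH-23, and 27.4% and 27.1% with it. Of 11 genes for loading, acetylation, sister chromatid cohesion and release, 2 were higher (Pttg1 and Chtf8) and 8 lower without JSH-23, with a median log2 change of -0.90. Mau2, the partner of NIPBL in loading, was among the lower ones at -0.28 (adjusted p = 2.46e-06). All 8 condensin genes were tested, none was higher and 5 were lower, with a median of -0.69. Of the 7 SMC5/6 genes 3 were higher and 2 lower, and of the 7 partners of CTCF and other loop factors 3 were higher (Yy1, Zfp143 and Chd4) and 3 lower. The germline paralogs were nearly silent, with Ctcfl, Smc1b, Rec8 and Rad21l below the filter and Stag3 at 0.31 TPM in WT.

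Of the 8 named for the largest changes, 5 act in dividing cells. Esco2, the acetyltransferase that acts on SMC3 in S phase, was at 1.84 CPM in WT and 0.295 CPM in WTL (log2 -2.66, adjusted p = 9.44e-07). Sgo1, which protects centromeric cohesin, changed by -2.23 (adjusted p = 2.63e-06), Ncapg, a condensin subunit, by -1.47 (adjusted p = 1.97e-06), Espl1, the protease separase that cuts RAD21, by -1.36 (adjusted p = 3.87e-08) and Chtf18, of the clamp loader at the fork, by -1.17 (adjusted p = 0.000307). Stag3 changed by -1.38 (adjusted p = 0.0269) at a level near the filter. Esco2, Sgo1 and Chtf18 were low too. Sgo1 was at 1.42 CPM in WT and 0.309 CPM in WTL, and Chtf18 at 1.88 and 0.856 CPM. Eid3, a subunit of SMC5/6, was the one that rose past 2-fold among the 8 largest (1.83, adjusted p = 6e-11). Ldb1, which joins enhancers and promoters into loops, went from 48.5 to 20.9 CPM (log2 -1.22, adjusted p = 3.19e-13).

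Of 12 markers of cycling cells, 10 were called lower and 1, Mki67, higher by LPS without JSH-23, beside 34.7% and 31.0% of all genes tested. Their summed level was between 283 and 299 TPM in WT, 252 and 268 TPM in WTL, 275 and 285 TPM in WT+JSH23, and 233 and 237 TPM in WTL+JSH23. These sums include Mki67, which rose from 14.3 TPM in WT to 76.9 TPM in WTL (log2 2.74, adjusted p = 4.89e-22). The part of the markers in the changes of Smc3, Pds5b and Rad21 was not tested.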

How the data were processed

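RNA-seq of 12 libraries was used. The authors trimmed reads with Trim Galore, aligned them to mm10 with STAR (2.6.0c per the submitters' processing notes) and ran RSEM on a GENCODE annotation, with its release not given in the sources used here. In the deposited expected counts RSEM split ambiguous read pairs among genes, and the deposited TPM values were made by the authors from these counts and effective lengths. The deposited FPKM values were not used. The labels and the study's methods name different library kits, so it is not settled whether counting used strand. Symbols and positions are from GENCODE M21 (GRCm38), to which 55154 of 55335 identifiers matched without version.

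Expected counts were rounded and filtered with filterByExpr, which left 14357 genes. The edgeR 4.0.16 quasi-likelihood test (R 4.3.3) was fitted with TMM factors to the 12 libraries together, with a mean for each group and 8 residual degrees of freedom, and p values were adjusted by Benjamini-Hochberg over all genes tested. A call needed an adjusted p under 0.05. Where no tool is named, adjusted p values are those of edgeR. SE is the absolute log2 change divided by the root of the F statistic, and 95% intervals use the residual degrees of freedom. The interaction subtracts the LPS change without JSH-23 from that with it. The script was tested on simulated data. Levels, ratios and similarity are descriptions. Partner genes were named where the interaction was called or an LPS change passed 2-fold, the 8 largest first, and Mki67, Cd14, Mau2 and the short lists of called genes were named after their values were seen. One gene of the partner lists is not reported here and was left out of their counts. Members and lists were chosen with earlier results of these data known. Alternatives were DESeq2 1.42.0, other scalings, filters and call rules, limma 3.58.1 on log2(TPM + 1) and log2(TPM + 0.1), the compared groups only, each library left out, and a replicate block.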

Additional observations from a re-analysis of the deposited data

Results flagged for a closer look

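No member passed the test of the interaction in the edgeR fit with TMM. Of the 34 other genes of chromosome architecture tested, 8 had an LPS change that differed with JSH-23, 6 with a higher and 2 with a lower value under it, beside 9.54% and 8.44% of all genes tested. Mau2 differed by 0.27 (adjusted p = 0.00154), Ncapd3 by 0.48 (0.00803), Smc6 by 0.20 (0.0322), Maz by 0.25 (0.0101), Pttg1 by -0.42 (0.00376) and Chtf8 by -0.25 (0.00743). Of the markers whose LPS change is given above, Mki67 differed by 0.19 (0.0258) and Cd14 by -0.78 (2.05e-07). For Ldb1 the LPS change was less negative with JSH-23 than without it by 0.40 on the log2 scale (adjusted p = 0.00349, edgeR). Mean levels were 48.5 CPM in WT, 20.9 CPM in WTL, 49.4 CPM in WT+JSH23 and 27.9 CPM in WTL+JSH23, and the interaction had the same sign with each library left out, at 0.32 to 0.47. For Sgo1 the difference was 1.36 (adjusted p = 0.0409), at levels between 0.233 and 1.66 CPM. It was not called in 8 of the 12 fits that left out a library. Without WTL replicate 5 the value for Sgo1 was 1.18 (adjusted p = 0.126), and limma on log2(TPM + 1) gave 0.45 (adjusted p = 0.0933).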

How the results depend on the processing

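DESeq2, RLE factors, no count filter and the compared groups only kept each number of members called within 1.5 times. With upper quartile factors LPS left 2 members higher without JSH-23 and 4 lower with it, beside 3749 and 5090 of the 14357 genes tested. With plain totals LPS left 1 higher and 8 lower without JSH-23, beside 2106 and 8601 genes. With JSH-23 it left 1 higher and 6 lower, beside 2011 and 7601 genes. On both TPM scales the members were 1 and 7 without JSH-23, and 1 and 5 with it. The genes called on log2(TPM + 1) were 1887 and 7743, and 1946 and 5924. JSH-23 under LPS left 2 members higher and 2 lower with plain totals, beside 5460 and 2241 genes. On both TPM scales it left 1 and 0, beside 4257 and 1889 genes on log2(TPM + 1). JSH-23 without LPS left 4 members lower under all 3, beside 2690 genes with plain totals and 2416 on log2(TPM + 1). The interaction left 2 higher under all 3 and with a mean of at least 1 CPM. Beside these, 2499 genes were higher with plain totals, 1356 on log2(TPM + 1) and 1508 with that filter. No member passed a 2-fold rule, so 0 were higher or lower. With each library left out, JSH-23 without LPS called 5 to 8 members lower and the interaction 0 to 1 higher. All genes called in the same way were 2742 to 3342 and 968 to 1458.

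The direction turned for these members in the LPS comparison without JSH-23, in the order plain totals, log2(TPM + 1) and log2(TPM + 0.1). Stag1 was at -0.24, -0.20 and -0.21, Stag2 at -0.17, -0.20 and -0.20, Nipbl at -0.28, -0.26 and -0.28, and Pds5a at -0.17, -0.18 and -0.18. Wapl was at -0.02 on both TPM scales. With JSH-23 Stag1 was at -0.16, -0.20 and -0.21, Pds5a at -0.05, -0.09 and -0.09, and Nipbl at -0.04 and, on both TPM scales, just below 0 (-0.00). Stag2 was at -0.22 with plain totals, and Nipbl at 0.11 for JSH-23 under LPS. The cause was not tested for the TPM scales, where the test and the lengths differ too.

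Same-numbered libraries of WT and WTL had deviations correlated at -0.0904, 0.105 and 0.124, and those of the JSH-23 groups at -0.082, 0.0632 and 0.0648, so the numbers were not taken as pairs. With the replicate block 2 members, Smc3 and Nipbl, passed the interaction (adjusted p = 0.04 and 0.0433), beside 1559 genes with a higher and 1409 with a lower value. No other call of a member changed there or in the LPS comparisons. The block was not fitted for the comparisons of JSH-23 with no JSH-23. Over all genes, LPS called 4451 higher and 4986 lower with TMM but 2106 and 8601 with plain totals, and 1056 and 1305 past 2-fold. Counting depth did not limit the members.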
